A study of Drosophila melanogaster with 9 samples.

Results

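The comparison described here is that of testes with a knockdown of *U2af38* in the male germline against control testes, read across all genes of the *Drosophila melanogaster* genome. Its members are the libraries whose sample titles carry *U2af38* RNAi (3 libraries) or Control (3 libraries), 6 of the 9 libraries of the series. The other 3 come from *SRPK* RNAi testes and are given below for comparison, while "the knockdown" always means that of *U2af38*. In the RNAi genotypes a UAS hairpin was driven by *bam-GAL4*, which is active in late spermatogonia and spermatocytes, so that somatic cells of the testis keep the gene. The hairpin was 1 of the *U2af38*HMS04505 and *U2af38*KK108210 lines, and the sources used here do not say which of them was sequenced. As controls the study used siblings of the RNAi flies or the *bam-GAL4* driver line itself, and which of them was sequenced is likewise not given. All males were 1 to 3 days old and were raised at 25°C. Testes of many males were pooled per library, and total RNA was depleted of ribosomal RNA before strand-specific sequencing.

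U2af38 is the small subunit of the U2AF complex, which recognizes the end of an intron and brings the U2 snRNP to the branch site, one of the first steps of spliceosome assembly. In the fly testis, germline stem cells give rise to spermatogonia, which divide by mitosis, replicate their DNA once more and become spermatocytes. Spermatocytes grow and transcribe most of the genes that meiosis and sperm formation will need. Many of these genes depend on testis-specific regulators, the testis meiotic arrest complex (tMAC), testis forms of the TATA-binding-protein-associated factors (TAFs) and testis bromodomain proteins, and the transcripts of many are stored and translated only in spermatids. Under the microscope, according to the study, *U2af38* RNAi germ cells reach the spermatocyte stage and stop before the meiotic divisions, so these testes lack the later cells that control testes hold. In RNA from whole testes, fewer cells of a type and less RNA per cell cannot be told apart.

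Between 18497748 and 30002574 fragments were counted per library. Levels are given in CPM, fragments of a gene scaled to a common library size with edgeR's TMM factors. *U2af38* (chromosome 2L, 292959 to 294681, dm6) measured 37.5, 42.3 and 41.1 CPM in the controls against 2.46, 4.38 and 3.10 CPM in the knockdown, and the labels thus match the targeted gene. Its partner *U2af50*, the large subunit of U2AF, was read at a mean of 107 CPM in both groups. The rank correlation of libraries across genes was 0.990 to 0.996 within the 2 groups and 0.857 to 0.864 between them. Accessory gland transcripts varied between libraries of the same group. *Acp36DE*, a seminal fluid protein, was read at 379 and 271 CPM in control replicates 1 and 3 and at 8.69 CPM in control replicate 2, and at 143 CPM in *U2af38* RNAi replicate 1 against 8.23 and 8.87 CPM in the others. *Ebp*, an ejaculatory bulb gene, reached 302 CPM in *U2af38* RNAi replicate 2 alone, against at most 1.31 CPM elsewhere in the 6 libraries.

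Of 17575 genes in the table, 14941 were read deeply enough to be tested with edgeR's quasi-likelihood test. At a Benjamini-Hochberg adjusted p under 0.05, 6674 genes (44.7%) were higher and 5606 genes (37.5%) were lower in *U2af38* RNAi, 82.2% in either direction. These percentages are the background for the lists of genes expressed in the testis. Genes close to silent there passed the filter on low counts mostly through the libraries in which they are high. Of 2180 tested protein-coding genes under 1 CPM in *SRPK* RNAi, 83.5% were higher. For lists of such genes, as are many of those known from other tissues, 44.7% is therefore no background. The 2 groups did not overlap, with *U2af38* RNAi above, for 46.2% of the genes tested, and below for 38.5%. The median gene had a log2 fold change of 0.12. Scaling on library size alone moved it by 0.64, scaling on upper quartiles by 0.30 and scaling on ribosomal protein genes by -0.44. For this reason the median of a list is given relative to the median gene, which no scaling changes, while the fold changes and calls of single genes are those of the TMM scaling. Of the directional calls, 54.3% were higher with TMM factors, 73.4% on library size, 64.5% on upper quartiles and 38.3% on ribosomal protein genes.

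The direction of change followed the level at which a gene is expressed in the testis. To keep the level apart from the contrast, protein-coding genes were grouped by their mean in the *SRPK* RNAi libraries. Of 125 genes over 1000 CPM there, 92.0% were lower in *U2af38* RNAi and 4% were higher. Among 2310 genes at 100 to 1000 CPM, 67.5% were lower and 22.2% higher. Among 2180 tested genes under 1 CPM, 83.5% were higher and 3.67% lower, but a gene of that level passed the filter on low counts mostly through the libraries in which it is high, so this last share had to be large. The 100 most abundant genes took 22.02% to 23.2% of the fragments of a control library and 17.3% to 17.4% of those of a *U2af38* RNAi library. The most abundant gene, *CG4836*, went from a mean of 13695 CPM in control to 4141 CPM in *U2af38* RNAi.

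**Figure D1:**
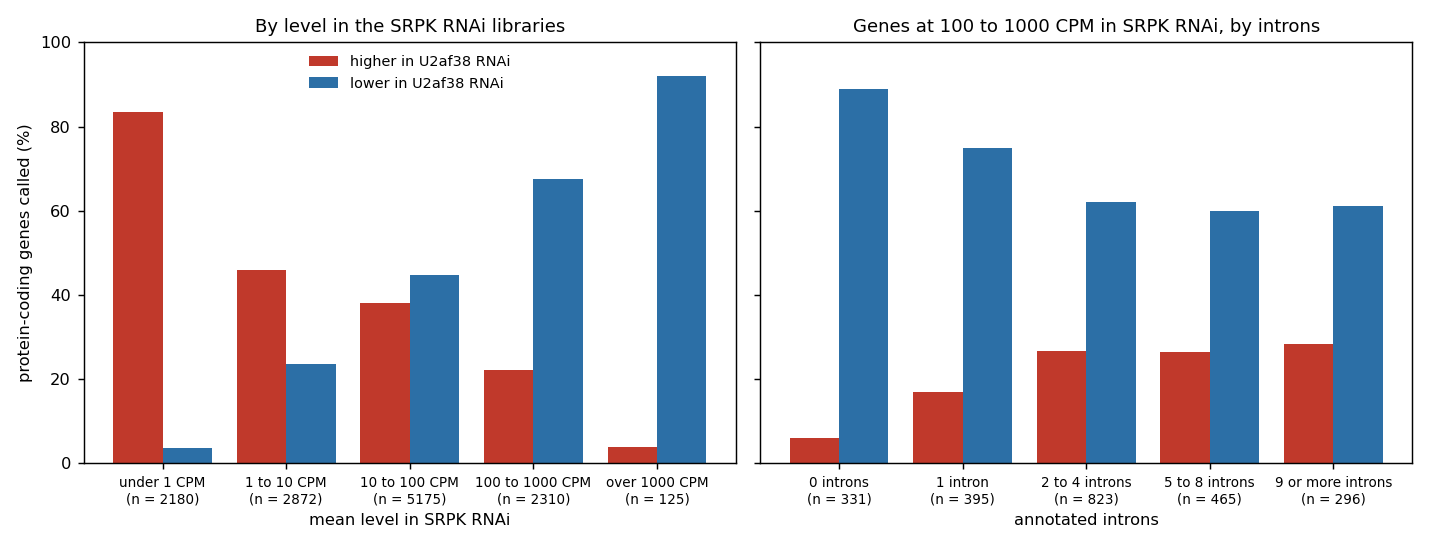
Percent of protein-coding genes called higher (red) or lower (blue) in *U2af38* RNAi than in control, with genes grouped by their mean CPM in the *SRPK* RNAi libraries (left) and, for genes at 100 to 1000 CPM there, by the number of annotated introns (right). The share of lowered genes goes up with the level, to 92.0% over 1000 CPM, and among genes of like level is highest, at 88.8%, in those without an intron.

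The number of introns was compared because U2AF acts on introns. Genes without introns were lowered more often than genes with many. Over all 1764 tested protein-coding genes with no annotated intron, 37.9% were higher and 43.9% lower, against 48.5% and 36.1% of 1160 genes with 9 or more introns. The medians lay -0.24 and 0.04 from the median gene. Within genes of 100 to 1000 CPM in *SRPK* RNAi, 88.8% of 331 intronless genes were lower and 6.04% were higher, with a median of -1.53 relative to the median gene. With 1 intron the share that was lower was 74.9% of 395 genes, and with 9 or more it was 61.1% of 296 genes, with a median of -0.46. At 10 to 100 CPM, 54.9% of 614 intronless genes and 33.6% of 541 genes with 9 or more introns were lower. These shares are descriptions, since genes are not independent replicates. By chromosome, 31.6% of 1998 X-linked protein-coding genes were lower and 48.5% higher, while 36.9% to 40.6% were lower on the major autosomal arms.

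Genes of the earliest germ cells were more often higher than lower. Of 12 genes of germline stem cells and spermatogonia, 8 were higher and 1 was lower, and the median lay 0.44 above the median gene. Scaled on ribosomal protein genes, 4 were higher and 3 were lower, with a fitted median of 0.12. *Phf7* (X, 20160355 to 20165830), a histone reader of the male germline, measured 51.9, 47.4 and 45.6 CPM in the controls against 158, 168 and 177 CPM in the knockdown. The groups were far apart, a rise of 1.80 on the log2 scale (standard error 0.08, edgeR adjusted p = 6.9e-10). *tut*, which works with Bam to end the spermatogonial divisions, went from 14.9, 16.02 and 13.9 CPM to 36.6, 36.7 and 35.3 CPM, a log2 fold change of 1.28. *otu* (0.91), the Piwi protein gene *aub* (0.69) and the germline helicase gene *vas* (0.64) also rose. The exons of *vas* overlap those of *solo* on the same strand, and shared fragments were not counted. The 1 member that was lower was *bgcn*, another partner of Bam. It measured 138, 127 and 155 CPM in the controls against 56.6, 56.8 and 63.6 CPM in the knockdown. Its log2 fold change was -1.25, and against *SRPK* RNAi it was -1.28. *bam* itself, at 8.42 to 9.21 CPM in control and 7.10 to 8.01 CPM in *U2af38* RNAi, missed the threshold with a log2 fold change of -0.23 (edgeR adjusted p = 0.13). Against *SRPK* RNAi, 4 members of the list were higher and 2 were lower in *U2af38* RNAi, where 42.3% and 37.6% of all genes were.

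DNA replication genes changed in both directions. Of 18 members, 11 were higher and 6 were lower, with a median 0.58 above the median gene, and 8 were higher and 7 were lower on ribosomal protein genes. *PCNA*, the sliding clamp of the polymerase, measured 18.3, 18.6 and 16.6 CPM in the controls against 74.3, 72.9 and 71.8 CPM in the knockdown. This was a 4.09-fold rise (log2 2.03, standard error 0.07). The origin recognition subunit *Orc1* rose by a log2 of 1.90 and the ribonucleotide reductase subunit *RnrS* by 1.79. In contrast, *Cdc45*, a part of the replicative helicase, went from 13.98, 11.6 and 12.7 CPM to 1.56, 2.04 and 1.41 CPM, which is 13.2% of control. *CycE*, the cyclin of entry into S phase, fell by 1.86 on the log2 scale, and *dpa*, a helicase subunit also known as Mcm4, fell by 0.72. Each of these 6 genes was changed in the same direction against *SRPK* RNAi.

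Regulators of the meiotic divisions were likewise divided. Of 12 members, 7 were higher and 4 were lower, with a median 0.39 above the median gene. On ribosomal protein genes, 6 were higher and 5 were lower. *Cks30A*, a subunit of cyclin-dependent kinases, went from 17.5, 17.8 and 15.4 CPM to 67.8, 61.9 and 65.0 CPM, a log2 fold change of 1.94. *fzy*, the Cdc20 of the fly, rose by 1.29, *CycA* by 1.16, *CycB* by 1.06 and the mitotic kinase gene *polo* by 0.93. Among the 4 that were lower, *bol*, an RNA-binding protein needed for Twine translation, measured 1153, 1217 and 1334 CPM in the controls against 576, 600 and 634 CPM in the knockdown, 48.8% of control. *twe*, the Cdc25 phosphatase of meiosis, went from 185, 190 and 196 CPM to 124, 135 and 124 CPM, a log2 fold change of -0.58 that is smaller than the 0.64 by which library size moved the median gene. *CycB3* fell by 0.89. *Cdk1* missed the threshold at 0.07. Of 7 genes of meiotic chromosome pairing and cohesion, 3 were higher and 4 were lower, and their median lay -0.52 from the median gene. The fitted median was -0.40 and turned to 0.23 on library size. The cohesion gene *sunn* fell by 1.75, the cohesin subunit *SA2* (*snm*), which holds male homologs together, by 1.04, and *uno*, of the same pairing system, by 0.93. *solo* was higher by 2.00, but its exons overlap those of *vas* on the same strand, and shared fragments were not counted.

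Regulators of spermatocyte transcription were more often lower than higher. Of 14 measured tMAC, testis TAF and testis bromodomain genes, 9 were lower and 2 were higher, and the median lay -0.44 from the median gene. The fitted median was -0.32 with TMM factors and 0.32 on library size. The most lowered was *sa*, a testis TAF, at 66.6, 60.3 and 61.8 CPM in control and 25.1, 23.7 and 22.5 CPM in the knockdown, a log2 fold change of -1.41. *tbrd-3* fell by 1.00 and *tomb*, a tMAC subunit, by 0.84. *nht*, another testis TAF, rose by 0.85. The tMAC subunit gene *aly* was read at a mean of 35.4 CPM in control and 40.9 CPM in *U2af38* RNAi, and *can*, a testis TAF, at 73.3 and 71.2 CPM. Both missed the threshold (edgeR adjusted p = 0.057 and 0.65). Summed over the list, control libraries held 1070 to 1151 CPM and *U2af38* RNAi libraries held 859 to 882 CPM. Against *SRPK* RNAi, 9 of the 14 were lower.

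**Figure D2:**
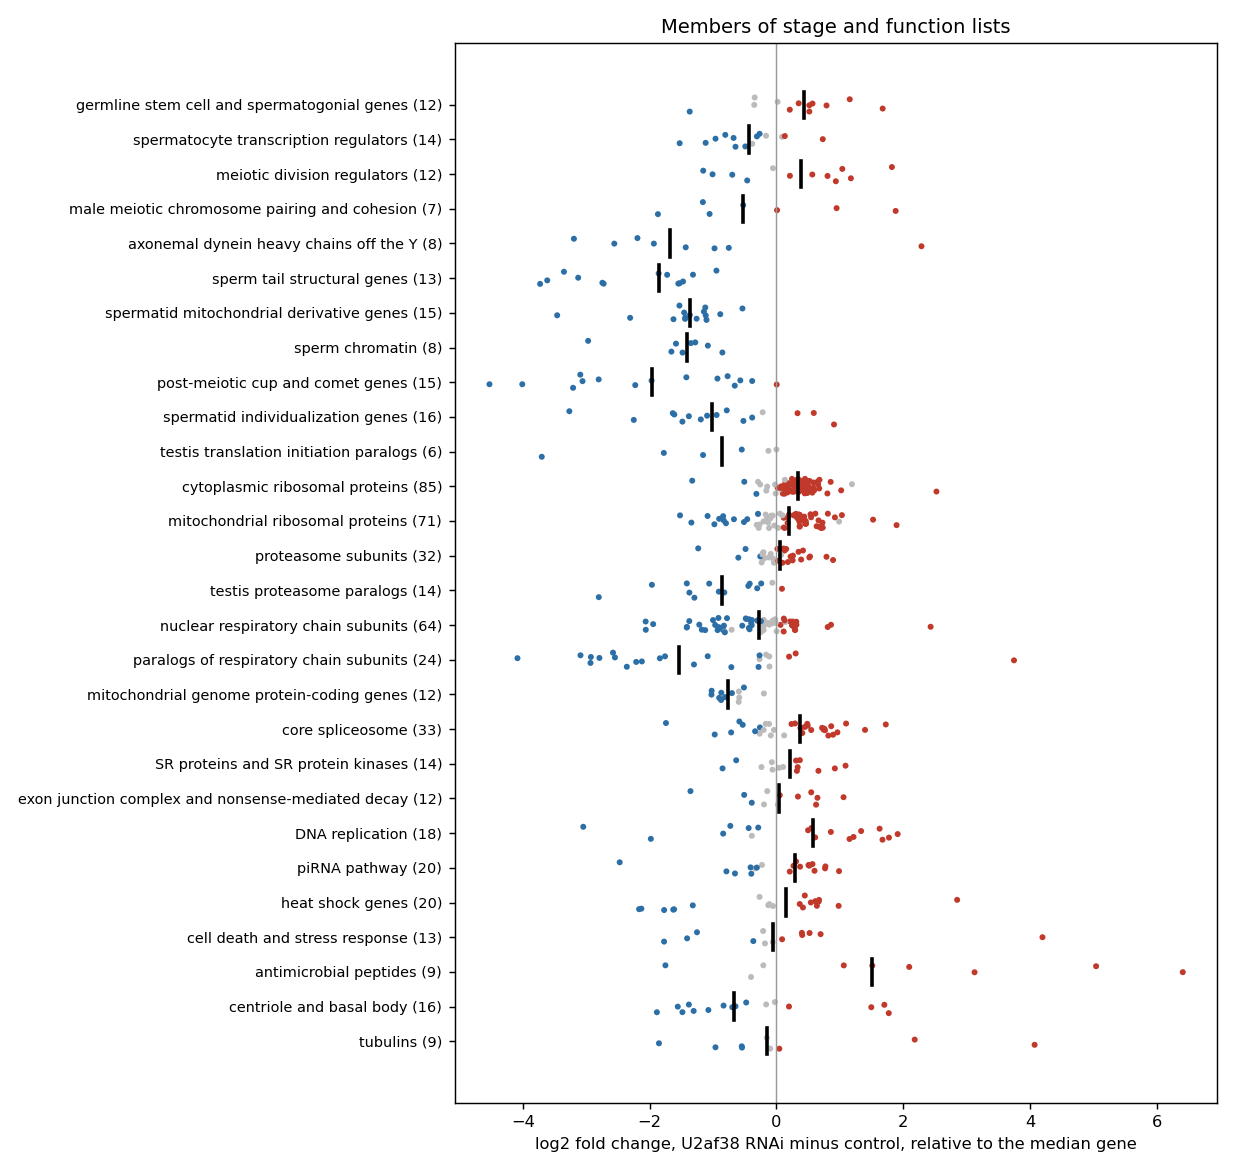
Members of each list of stages and functions as points, at their log2 fold change of *U2af38* RNAi minus control relative to the median gene (0), with red for called higher, blue for called lower and grey for not called; the black bar is the list's median and the number of tested members stands in parentheses. The lists of sperm structures lie left of 0, with medians down to -1.97 for cup and comet genes, and the cytoplasmic ribosomal proteins lie right of it at 0.34.

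With TMM factors, genes of spermatids and sperm fell almost without exception. All 13 measured sperm tail genes, all 15 genes of the spermatid mitochondrial derivative and all 8 genes of sperm chromatin were lower, with medians of -1.86, -1.37 and -1.41 relative to the median gene. Each of these genes was also lower than in *SRPK* RNAi by edgeR's test, in which 37.6% of all genes were. Scaled on library size, 13 tail genes, 14 mitochondrial derivative genes and 7 sperm chromatin genes were lower than in control. In that scaling 1 mitochondrial derivative gene was higher. The tail gene *dj* (don juan) measured 1886, 1919 and 1948 CPM in the controls against 309, 319 and 305 CPM in the knockdown, 16.2% of control. *Tpl94D*, a transition protein that precedes the protamines on sperm DNA, went from 706, 712 and 769 CPM to 99.0, 100 and 104 CPM, a log2 fold change of -2.85. The protamine genes *ProtA* and *ProtB* fell by 1.46 and 1.54. The import receptor paralogs of spermatid mitochondria, *tomboy40* and *tomboy20*, fell by 2.19 and 1.503, and *ttm3*, an inner membrane translocase paralog, by 3.34. *fzo*, the mitofusin that fuses spermatid mitochondria right after meiosis, changed least in its list, from 302, 280 and 307 CPM to 223, 222 and 221 CPM (log2 -0.42). *Mst84Dd* and *Mst84Da*, with log2 fold changes of -3.61 and -3.23, belong to a cluster of similar genes and varied widely between control libraries (785 to 1685 CPM for *Mst84Dd*). Their values are uncertain for that reason.

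Cup and comet genes are the few genes known to be transcribed after meiosis, in elongating spermatids, and their RNAs gather at the tail end of the spermatid. Of 15 tested members, 14 were lower, with a median of -1.97, and 14 were lower than in *SRPK* RNAi. On library size, 10 were lower and 3 were higher than in control. *w-cup* (2L, 10575860 to 10577792) was read at 3857, 3983 and 4067 CPM in control, at 3354, 3458 and 3799 CPM in *SRPK* RNAi and at 435, 462 and 504 CPM in *U2af38* RNAi. The *U2af38* RNAi level was 11.8% of control, with no overlap. *d-cup* kept a smaller share, from 77.3, 80.8 and 81.9 CPM to 3.94, 3.71 and 3.67 CPM (log2 -4.41), and *wa-cup* fell by 3.89. *soti*, an inhibitor of the caspase-activating ubiquitin ligase, fell by 0.26 only. *r-cup* was read at 130 to 143 CPM in control and at 144 to 152 CPM in the knockdown, a log2 fold change of 0.12 that equals the shift of the median gene. The list was thus not uniform, with *d-cup* and *r-cup* as its ends.

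Genes of sperm individualization, in which spermatids are stripped of cytoplasm with the help of caspases, showed 12 of 16 lower and 3 higher. On library size, 9 were lower and 6 were higher. *jar*, the myosin VI that organizes the actin cones, went from 1041, 1015 and 1165 CPM to 105, 131 and 128 CPM, 11.3% of control. The tubulin chaperone-like gene *mlt* fell by 2.13 and the deubiquitinase gene *Duba* by 1.51. With TMM factors, the 3 that rose were the initiator caspase *Dronc* (1.03), the effector caspase *Drice* (0.71) and the adaptor *Fadd* (0.45). *Dark* and *Dredd*, of the same list, were not called higher. Axonemal dynein heavy chains encoded off the Y chromosome were lower in 7 of 8 cases with a median of -1.68. *Dnah3* measured 647, 630 and 868 CPM in the controls against 76.6, 79.6 and 98.7 CPM in the knockdown (log2 -3.07), and *Dhc36C* fell by 2.44. Against *SRPK* RNAi the differences were -3.53 and -2.69. *CG3339* alone went the other way, from 16.7, 14.3 and 16.01 CPM to 77.8, 77.2 and 94.9 CPM (log2 2.41).

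**Figure D3:**
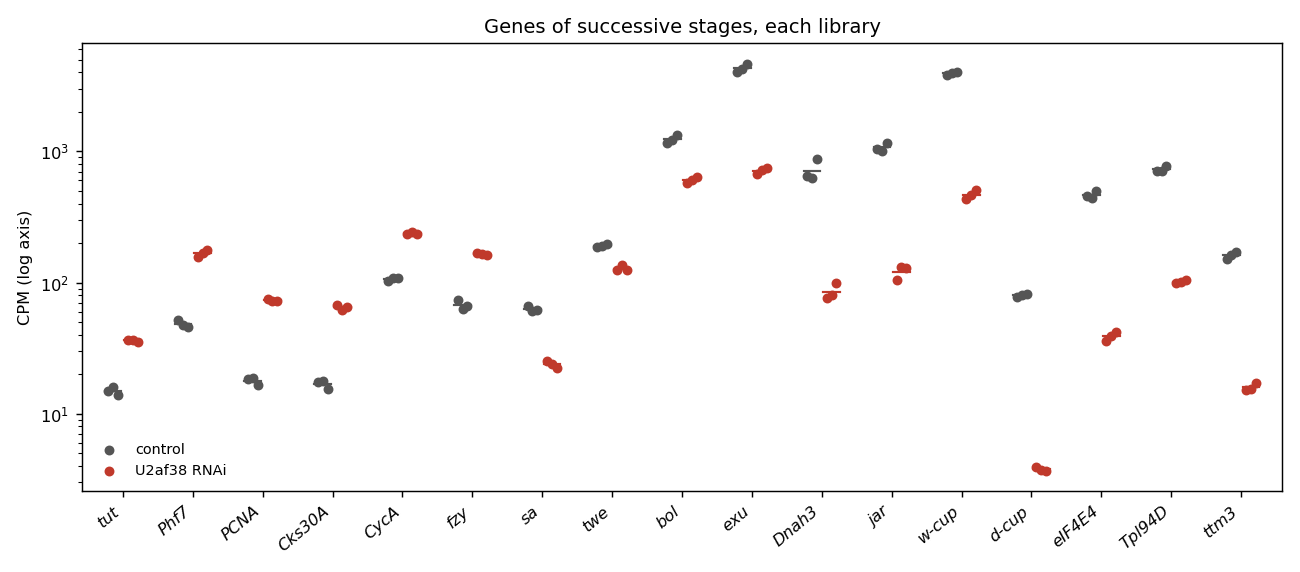
CPM on a log axis in each of the 3 control (grey) and 3 *U2af38* RNAi (red) libraries for 17 genes ordered from spermatogonia to spermatids, with short lines at the group means. *tut*, *Phf7*, *PCNA*, *Cks30A*, *CycA* and *fzy* sit higher in *U2af38* RNAi, and the genes from *sa* to *ttm3* sit lower, with no overlap between the groups. The genes were picked from those called with no overlap, so the separation holds by choice. Members of these lists that went the other way, such as *bgcn*, *Cdc45*, *nht* and *CG3339*, are not shown.

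The testis carries second copies of many housekeeping genes, and 2 sets of such copies were compared with the main subunits. Of 14 testis paralogs of proteasome subunits, 12 were lower and 1 was higher, with a median of -0.86. On library size 7 were lower and 6 were higher, with a fitted median of -0.11. Of 32 ubiquitous proteasome subunits, 17 were higher and 4 were lower, with a median of 0.05. The fitted median of the ubiquitous subunits was 0.17, and it was -0.27 when scaled on ribosomal protein genes. *Prosbeta2R2* went from 106, 94.8 and 100 CPM to 15.6, 14.6 and 16.7 CPM (log2 -2.68), while *Prosbeta4*, a ubiquitous subunit of the same ring type, rose by 1.01. Of 24 tested paralogs of respiratory chain subunits, 17 were lower and 3 were higher, with a median of -1.53. *SdhAL* went from 214, 225 and 244 CPM to 23.6, 30.3 and 33.2 CPM, and *UQCR-6.4L* fell by 3.96. The 64 main nuclear subunits included 31 lower and 16 higher, with a median of -0.27. Their fitted median of -0.15 became 0.49 on library size and 0.16 on upper quartiles. Among them *ND-15* and *UQCR-Q* each fell by 1.94. Of 12 tested protein-coding genes of the mitochondrial genome, 8 were lower and none was higher, with a median of -0.76. On library size 2 of them were higher and none was lower.

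Chaperones, tubulins and translation factors changed gene by gene. The testis chaperonins *Hsp60B* and *Hsp60C* fell by 2.05 and 2.01, from 1377 to 1628 CPM and from 2375 to 2825 CPM in control to 346 to 370 CPM and 621 to 672 CPM. The ubiquitous *Hsp60A* rose by 0.54 and *Hsp83*, the Hsp90 of the fly, by 0.57. *betaTub85D*, the tubulin of meiotic spindles and the sperm axoneme, went from 2473, 2544 and 2750 CPM to 1444, 1441 and 1452 CPM (log2 -0.84). *alphaTub67C* and *gammaTub37C*, tubulins of the oocyte and early embryo, rose by 4.19 and 2.30, from at most 0.50 CPM in control. Of the 9 tubulins, 3 were higher and 4 were lower. The cap-binding paralog *eIF4E4* went from 458, 443 and 501 CPM to 35.7, 39.4 and 42.1 CPM, 8.36% of control, and *eIF4E3* fell by 1.66. *eIF4G2*, the scaffold that meiotic division depends on, fell by 0.43, and *eIF4E7* was read at means of 258 and 257 CPM.

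Among cytoplasmic ribosomal proteins, 72 of 85 were higher and 3 were lower, with a median 0.34 above the median gene. Their sum was 15082 to 15298 CPM in control, 15530 to 16506 CPM in *SRPK* RNAi and 19539 to 21301 CPM in *U2af38* RNAi. *RpL10Aa*, a paralog expressed in the testis, was among the 3 that fell (log2 -1.21), and *RpS19b* and *RpS5b*, germline paralogs, rose by 1.14 and 0.98. Scaled on the ribosomal protein genes themselves, the fitted median of the list was by construction near 0, at 0.02. Mitochondrial ribosomal proteins were higher in 41 of 71 cases and lower in 12, with a median of 0.20. Scaled on ribosomal protein genes their fitted median turned from 0.32 to -0.12.

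Genes of the splicing machinery itself were higher more often than lower with TMM factors, but not when scaled on ribosomal protein genes. Of 33 core spliceosome genes, 19 were higher and 7 were lower, with a median of 0.38, against 12 higher and 12 lower on ribosomal protein genes. *Sf3b3*, a subunit of the SF3b complex that U2AF helps to recruit, measured 29.2, 33.1 and 31.0 CPM in the controls against 110, 114.8 and 110 CPM in the knockdown, a 3.59-fold rise. *U4-U6-60K* rose by 1.52 and *SmB*, of the Sm ring, by 1.22, while *Prp3* fell by 0.85. Of 14 SR protein and SR kinase genes, 7 were higher and 2 were lower. Their median was 0.21, and the fitted median of 0.33 was -0.11 when scaled on ribosomal protein genes. *SRPK*, the kinase targeted in the other knockdown, rose from 274, 248 and 281 CPM to 611, 589 and 658 CPM (log2 1.21), and *Srpk79D*, a second SR protein kinase, fell by 0.73. In nonsense-mediated decay, which removes transcripts with early stop codons, *Upf1* rose by 1.18 and its partners *Upf2* and *Upf3* fell by 0.39 and 1.24. The list of exon junction and decay factors held 6 higher and 3 lower of 12, and its fitted median went from 0.16 to -0.28 when scaled on ribosomal protein genes.

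The piRNA pathway, which silences transposons in the germline, had 12 of 20 tested genes higher and 6 lower, with a median of 0.29. The fitted median of 0.41 was -0.02 when scaled on ribosomal protein genes. The helicase gene *spn-E* rose by 1.11. *papi*, a Tudor protein on mitochondria that takes part in piRNA trimming, went from 267, 276 and 273 CPM to 51.0, 55.2 and 53.5 CPM, 19.6% of control, and was 259 to 299 CPM in *SRPK* RNAi. Centriole and basal body genes were lower in 10 of 16 cases and higher in 4. Their median was -0.67, and the fitted median of -0.55 was 0.09 on library size. The duplication factors *ana2* and *SAK*, the Plk4 of the fly, fell by 1.76 and 1.44, while the basal body gene *unc* and the centriole genes *ana3* and *Plp* rose by 1.89, 1.82 and 1.62. Cell death and stress genes showed no common direction, with 6 higher and 4 lower of 13. The death gene *hid* went from 34.7, 31.3 and 36.0 CPM to 10.2, 11.9 and 10.4 CPM (log2 -1.65) and *rpr* fell by 1.29, while the chaperone of the endoplasmic reticulum *Hsc70-3* rose by 0.82 and *p53* by 0.64. Heat shock genes were higher in 10 and lower in 6 of 20, with a fitted median of 0.28 that was -0.16 when scaled on ribosomal protein genes. The *Hsp70* genes are near-identical copies and their values are uncertain.

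Many genes with no fragments or nearly none in control testes were read in *U2af38* RNAi. Of 3120 genes with fewer than 3 fragments in every control library, 1502 had at least 3 in every *U2af38* RNAi library, and 137 had in every *SRPK* RNAi library. The *SRPK* RNAi count uses the same control libraries. In the reverse direction, 25 genes with at least 3 fragments in every control library had fewer than 3 in every *U2af38* RNAi library. Between 13502 and 13975 genes reached 3 fragments in a control library, against 15859 to 15957 in a *U2af38* RNAi library. The latter held fewer fragments in all, but a smaller share of them went to the most abundant genes. A count of 3 fragments corresponds to 0.123 to 0.170 CPM in the control libraries and 0.111 to 0.123 CPM in the *U2af38* RNAi libraries. With TMM factors the floor was thus mostly lower in *U2af38* RNAi, which favors gains in this count. Most of the gained genes stayed low, with a median of 0.87 CPM and a highest value of 41.8 CPM in *U2af38* RNAi. Among them were 882 protein-coding genes. Of these, 2.95% lay within the span of a longer gene on the same strand and 17.01% within one on the opposite strand, and 32.4% had a gene on the same strand ending within 1000 bp upstream. For the 773 protein-coding genes that were not gained, these shares were 12.9%, 11.3% and 39.7%, and for all other protein-coding genes 3.65%, 7.41% and 29.9%. Fragments shared by overlapping genes on one strand were not counted.

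**Figure D4:**
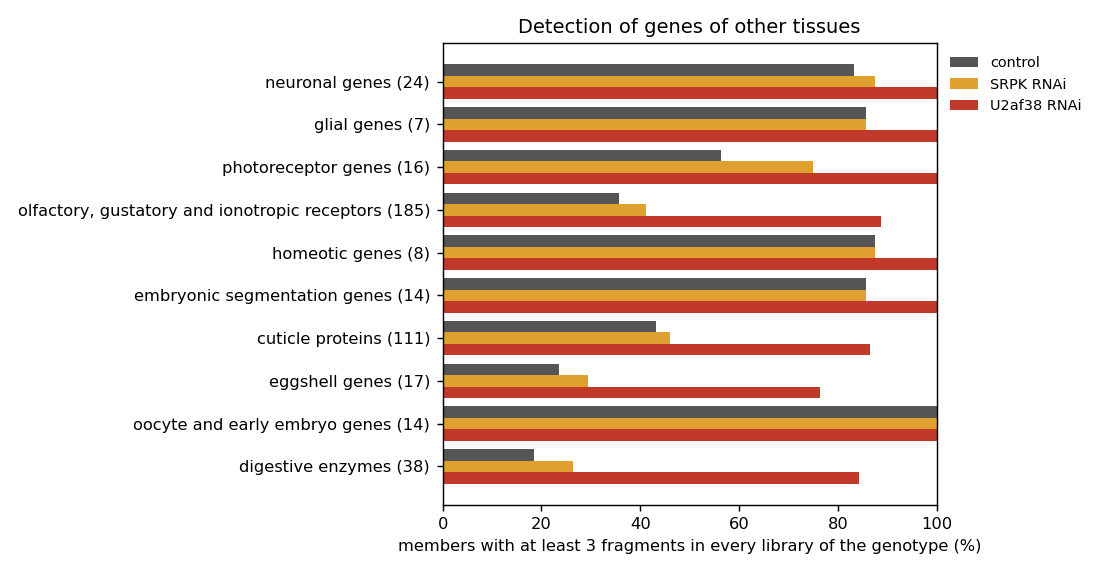
Percent of the members of each list of genes known from other tissues that had at least 3 fragments in every control (grey), *SRPK* RNAi (orange) or *U2af38* RNAi (red) library, with the number of members in parentheses. Among 185 chemosensory receptor genes, 66 were read in every control library, 76 in every *SRPK* RNAi library and 164 in every *U2af38* RNAi library. Of all protein-coding genes, 81.8%, 83.7% and 93.0% were.

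Gained genes were found among chemosensory receptor (59), cuticle (38), digestive enzyme (20), eggshell (9), photoreceptor (2) and segmentation genes (2). The neuronal, glial, homeotic and oocyte and early embryo lists held 0 gained genes. In these lists, no member was under 3 fragments in every control library. Because silent genes enter the test mainly through the libraries in which they are read, the counts that follow are over all members of a list, tested or not. Of 185 olfactory, gustatory and ionotropic receptor genes, 74 had fewer than 3 fragments in every control library. Of these 74, 59 had at least 3 in every *U2af38* RNAi library and 4 in every *SRPK* RNAi library. Over all protein-coding genes, 1655 had fewer than 3 in every control library. Of these 1655, 882 had at least 3 in every *U2af38* RNAi library and 79 in every *SRPK* RNAi library. Of the 185, 106 were called higher, 15 were lower, 22 missed the threshold and 42 were not tested, at no more than 0.85 CPM in the 6 libraries. Of the tested protein-coding genes under 1 CPM in *SRPK* RNAi, 83.5% were called higher. *Or94a* (3R), an olfactory receptor, had no fragments in control but reached 15.3, 14.7 and 15.3 CPM in *U2af38* RNAi. Against a floor of 3 fragments in a control library, this was at least 88.6-fold higher. The taste receptors *Gr58a* and *Gr92a* were also at 0 in control and were at least 26.6-fold and 20.5-fold higher. Some receptors with testis expression fell, such as *Gr28a*, from 6.21, 5.80 and 5.96 CPM to 0.16, 0.19 and 0.36 CPM.

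All 16 photoreceptor genes were read in every *U2af38* RNAi library, against 9 in every control library. Of all protein-coding genes, 93.0% were read in every *U2af38* RNAi library and 81.8% in every control library. Of the 16, 12 were higher and 3 were lower. The light-activated channel *trp* went from 0.15, 0.17 and 0.04 CPM to 13.3, 12.01 and 16.97 CPM (log2 6.89, standard error 0.33), with 1.49 to 2.23 CPM in *SRPK* RNAi. *Arr2*, the main visual arrestin, had 1 fragment in all control libraries together and was read at 4.27, 3.86 and 6.01 CPM. The ratio was 291, with a 95% counting interval of 51.9 to 11516. *inaC*, the eye protein kinase C, had 2 control fragments and a ratio of 141 (38.7 to 1170). *ninaC*, a myosin of the eye, rose by 3.17. The other arrestin, *Arr1*, behaved in the opposite way, from 56.0, 59.1 and 56.0 CPM in control to 7.35, 7.04 and 7.86 CPM (log2 -2.94). *norpA*, the phospholipase of vision, was read at 29.5 and 29.8 CPM.

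Of 24 neuronal genes, 15 were higher and 5 were lower, and 20 of them were read in every control library, as were 81.8% of all protein-coding genes. *Gad1* (3L, 4074077 to 4088744), which makes the neurotransmitter GABA, was read at 1.604, 0.91 and 0.90 CPM in control, at 1.26 to 1.54 CPM in *SRPK* RNAi and at 79.5, 78.0 and 72.6 CPM in *U2af38* RNAi. This was a 67.5-fold rise (log2 6.08, standard error 0.15, edgeR adjusted p = 8.3e-12). The monoamine transporter *Vmat* rose by 4.64, the glutamate transporter *VGlut* by 4.33, the sodium channel *para* by 4.05 and the synaptic vesicle calcium sensor *Syt1* by 3.36. The pan-neuronal marker *elav* was read at 4.50 and 4.41 CPM and missed the threshold, and the active zone gene *brp* fell from 34.3 CPM to 6.97 CPM. *ChAT*, which makes acetylcholine, fell by 2.86. Neuronal genes thus did not move as a block. The glial regulator *repo* had 3 control fragments and was read at 2.50, 1.78 and 2.38 CPM in the knockdown, a ratio of 45.6 with a 95% counting interval of 15.3 to 223, while the glial enzyme *Gs2* fell by 1.03.

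Patterning genes also changed. *wg* (2L, 7307159 to 7316265), the Wnt ligand Wingless, measured 1.35, 1.88 and 1.10 CPM in the controls against 68.2, 66.3 and 74.0 CPM in the knockdown. The rise was 48.9-fold (log2 5.61), and against *SRPK* RNAi, at 2.71 to 3.25 CPM, it was 4.58 on the log2 scale. Of 14 segmentation genes, 8 were higher and 3 were lower, the latter being *en* (-2.74), *ftz* (-2.20) and *prd* (-1.45), with control means of 11.4, 7.15 and 38.2 CPM. Of the 8 homeotic genes 7 were higher and *abd-A* was lower. *Scr* went from 0.10, 0.17 and 0.04 CPM to 7.18, 6.79 and 8.18 CPM (log2 6.17). *Abd-B*, which is at work in the male reproductive segments, rose by 1.41. *abd-A*, the most abundant in control at 75.7, 71.4 and 73.4 CPM, fell to 39.1, 37.7 and 37.4 CPM. The remaining homeotic genes were read at no more than 13.5 CPM on average in either group.

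Genes of the female germline and eggshell were read as well. *Cp7Fb*, *Cp7Fc* and *Cp36*, which encode eggshell proteins made by the follicle cells of the ovary, had no fragments in control. *Cp7Fb* reached 16.99, 13.5 and 18.4 CPM in *U2af38* RNAi, at least 95.7-fold higher. *Cp7Fc* was at least 52.3-fold and *Cp36* at least 31.6-fold higher. In all, 9 of 17 eggshell genes were higher, 4 were lower, 1 missed the threshold and 3 were not tested. The 4 that fell included *fs(1)N* (-1.72) and *Cp15* (-0.71), with control means of 60.2 and 11.3 CPM. Of 14 oocyte and early embryo genes, all read in every library, 6 were higher and 4 were lower. *swa*, which localizes *bicoid* RNA in the oocyte, went from 1.35, 1.48 and 1.88 CPM to 17.3, 19.1 and 20.2 CPM (log2 3.57), and *bcd* rose by 2.51. *exu*, which also has a role in spermatogenesis, was among the most abundant control transcripts. It measured 4009, 4236 and 4666 CPM in the controls against 668, 721 and 750 CPM in the knockdown, 16.6% of control. *orb* fell by 1.10 and *osk* by 1.80.

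Digestive enzyme and cuticle protein genes were examined last. Of 38 digestive enzyme genes 24 were higher, 2 were lower, 2 missed the threshold and 10 were not tested. In all, 20 of them were gained from under 3 fragments in every control library, and none was gained in *SRPK* RNAi. The summed level of the list was nevertheless raised in both knockdowns. Its median over libraries was 98.6 CPM in control, 209 CPM in *U2af38* RNAi and 205 CPM in *SRPK* RNAi. Gene by gene, 23 were higher and 3 were lower in *U2af38* RNAi than in *SRPK* RNAi. *Jon65Aiv*, a gut protease, was at 0 in control and at 2.38, 3.19 and 3.06 CPM in *U2af38* RNAi, at least 16.9-fold higher. The maltase *Mal-B1* fell from 23.6, 31.4 and 28.6 CPM to 0.70, 0.85 and 1.81 CPM. Of 111 cuticle protein genes, 49 were higher, 16 were lower, 18 missed the threshold and 28 were not tested. Of the 51 under 3 fragments in every control library, 38 were gained. *Ccp84Ag* was at least 20.5-fold higher. *TwdlP* fell from 35.1, 36.0 and 38.8 CPM to 0.57, 0.41 and 0.81 CPM (log2 -5.94). The summed level of the cuticle list was no higher than in control, at 214 to 242 CPM against 253 to 269 CPM. That of the receptors was 329 to 396 CPM against 140 to 151 CPM.

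**Figure D5:**
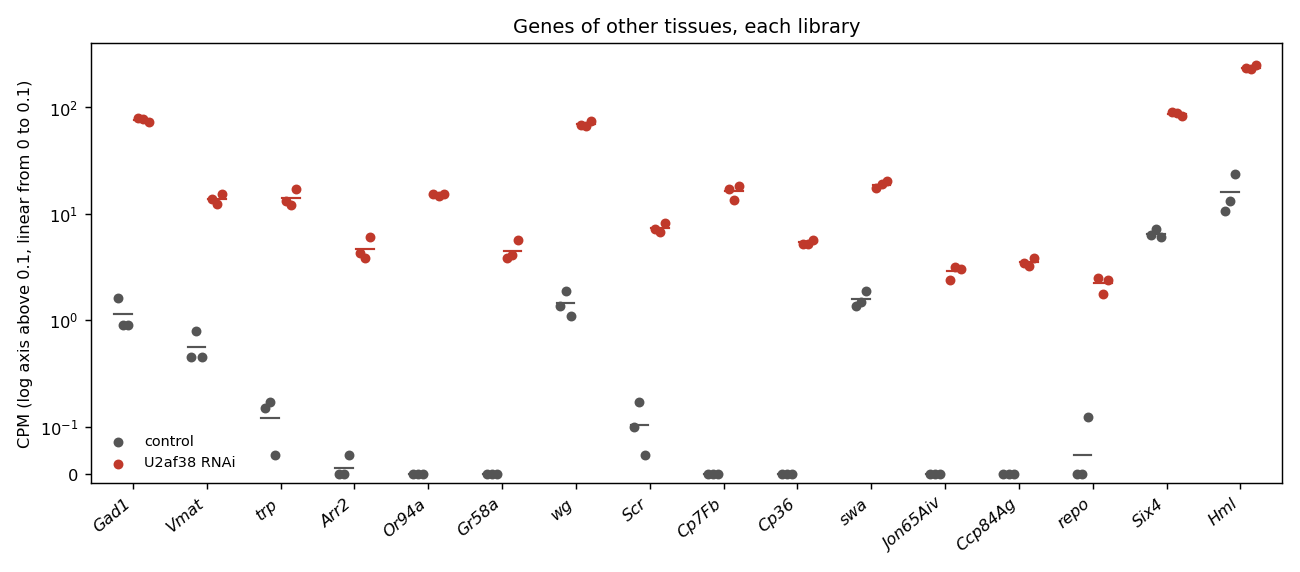
CPM in each of the 3 control (grey) and 3 *U2af38* RNAi (red) libraries for 16 genes known from neurons, eye, chemosensory organs, embryo, ovary, gut, cuticle, glia, somatic testis and blood cells, on an axis that is logarithmic above 0.1 and linear from 0 to 0.1, with short lines at the group means. Every *U2af38* RNAi library lies above every control library for each gene, from 1.78 CPM for *repo* to 249 CPM for *Hml*. These genes were picked from those that rose with no overlap, so the separation holds by choice. Members of the same lists that fell, such as *Arr1*, *ChAT*, *Mal-B1* and *TwdlP*, are not shown.

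Markers of somatic cells of the testis and of other tissues were read in the same libraries, and their part in the results above was not tested. Of 12 hub and cyst cell genes, 4 were higher and 6 were lower. Their fitted median was -0.17, and 0.47 on library size and 0.14 on upper quartiles. *Six4*, a homeobox gene of cyst cells, went from 6.32, 7.22 and 6.05 CPM to 91.1, 88.4 and 83.5 CPM, a 13.5-fold rise, while its relative *so* fell by 2.06. *eya* was read at 58.8 and 63.7 CPM and missed the threshold. *upd1*, the niche signal of the hub, went from 29.0, 29.3 and 31.5 CPM to 9.32, 8.94 and 9.27 CPM, and was lower in *SRPK* RNAi too, by 1.66 on the log2 scale against 1.71. Muscle genes were lower in 8 and higher in 1 of 16, with a fitted median of -0.29 that was 0.35 on library size and 0.01 on upper quartiles. *Act87E*, an actin, accounted for the largest fall, from 719, 727 and 795 CPM to 58.3, 66.7 and 70.8 CPM, and of the 16 genes it was the one that fell by more than 1 on the log2 scale. Of 5 tested blood cell genes, 3 were higher and 1 was lower. *Hml*, a marker of blood cells, went from 10.7, 13.4 and 23.9 CPM to 233, 228 and 249 CPM (log2 3.87), and *Pxn*, another, rose by 2.08. Both were also higher in *SRPK* RNAi than in control, *Hml* by 1.10 and *Pxn* by 1.42 on the log2 scale. *srp*, a GATA factor of blood and fat body, fell by 0.53. *He* was not tested, at no more than 0.56 CPM. Fat body genes were lower in 7 of 9 tested cases. Their sum was 132 to 208 CPM in control, 42.4 to 43.6 CPM in *U2af38* RNAi and 61.5 to 84.8 CPM in *SRPK* RNAi. Of 15 tested accessory gland and ejaculatory duct genes, 3 were higher, 3 were lower and 9 missed the threshold, with sums of 173 to 674 CPM in control and 77.8 to 441 CPM in *U2af38* RNAi. *Est-6*, an esterase of the ejaculatory duct, went from 48.7, 80.5 and 71.6 CPM to 28.2, 24.7 and 21.3 CPM, and the groups of *Acp95EF* (lower) and *Dup99B* (higher) did not overlap either, while the call of *Ebp* rests on the 1 library named at the start. Of antimicrobial peptide genes, a readout of immune signalling, 6 of 14 were higher and 1 was lower, with a sum of 11.4 to 12.01 CPM in control and 17.7 to 20.2 CPM in *U2af38* RNAi.

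Among genes averaging 1 CPM or more, the largest fall was that of a gene outside the lists above. *sordd2* (X, 15796908 to 15799162) went from 49.1, 46.2 and 52.4 CPM in control to 0.08, 0.04 and 0 CPM, with 51.4 CPM in *SRPK* RNAi. The knockdown held 3 fragments in all, and the ratio of control to knockdown was 1258 with a 95% counting interval of 430.2 to 6106 (edgeR adjusted p = 2.7e-12). The cytochrome P450 gene *Cyp6a17* fell from 7.22, 10.9 and 10.9 CPM to 0, 0 and 0.08 CPM, which is 2 fragments and a ratio of 370.2 (102 to 3064). *CG7634* fell from 588, 591 and 661 CPM to 3.00, 5.15 and 9.55 CPM (log2 -6.70). The other 5 of the 8 largest falls were long noncoding RNAs. *lncRNA:CR45191* went from 28.9, 30.4 and 25.5 CPM to 0.08, 0.11 and 0.16 CPM and was also lower in *SRPK* RNAi, at 3.86 CPM. *lncRNA:CR46490* had no fragments in *U2af38* RNAi. Over 2004 noncoding RNA genes tested, 44.3% were higher and 40.4% lower. The 8 largest rises were all genes with no control fragment, ranked by their fitted change. *CG7173* reached 22.3, 16.3 and 19.9 CPM in *U2af38* RNAi, at least 114-fold higher. *CG10183* was at least 97.8-fold higher and *nerfin-1*, a zinc finger gene of early neurons, at least 95.8-fold. *CARPA* and the organic anion transporter *Oatp33Eb* were at least 83.5-fold and 79.8-fold higher, and *Cp7Fb*, *Or94a* and *Cp7Fc* have been given above. In *SRPK* RNAi, these 8 genes were read at no more than 1.26 CPM on average.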

How the data were processed

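The authors sequenced total RNA from pooled testes, aligned the reads to dm6 with STAR 2.7.1a and deposited fragment counts per gene from featureCounts 1.6.2 on the FlyBase 6.37 annotation, with the reverse-stranded setting. These deposited counts carry no normalization. Fragments mapping to several places, or shared by genes on 1 strand, were not counted. The 2 lanes of a library were summed, and 0 columns were left unmatched. Genes passing edgeR's filterByExpr entered edgeR 4.0.16 in R 4.3.3 (TMM scaling, quasi-likelihood test, Benjamini-Hochberg adjustment, threshold 0.05), with all 9 libraries in 1 model. Standard errors are the log2 fold change over the square root of F. Where a group held no fragments, a bound was set against 3 fragments in 1 library; with 1 to 3 fragments, the ratio has an exact 95% interval. Intervals and floors cover counting error only. The labels call the samples biological replicates and do not say how their flies were raised apart, so p-values measure the spread between these samples.

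Symbols, gene types and introns came from Ensembl release 115, which listed 17512 of the 17575 genes, 17461 of them with the same exons; 7 list entries found no match. The lists and the members were chosen with earlier results of these data known. Genes named are *U2af38*, the 8 largest rises and falls among called genes averaging 1 CPM or more over the 6 libraries whose groups did not overlap, and up to 3 rises and 3 falls per list. Others were named after their values were seen. On simulated data, the same edgeR code was tested, and 92.4% of 170 changed genes among 12547 were called, with 4.85% false calls. The simulation changed few genes, balanced rises against falls and gave all genes the same dispersion. In the real comparison 82.2% of genes were called, so the simulated share of false calls does not carry over to it. DESeq2 1.42.0 and the other alternatives are given in the closing section. Summaries were made in Python 3.11.15 with pandas 2.3.3, SciPy 1.17.1, numpy 2.4.6 and, for figures, matplotlib 3.10.9. No sequences were used here.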

Additional observations from a re-analysis of the deposited data

How the results depend on the processing

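The counts of 6674 higher and 5606 lower genes became 6721 and 5390 with DESeq2, 7103 and 5767 without a filter, and 4901 and 4610 with at least 10 fragments in every library. Scaling changed the balance, to 9534 and 3451 on library size, 8153 and 4492 on upper quartiles and 4694 and 7556 on ribosomal protein genes. A minimum log2 fold change of 1 left 3471 higher and 2812 lower. Leaving out each replicate in turn gave 6515 to 6705 higher and 5479 to 5548 lower genes. Leaving out *U2af38* RNAi replicates 1 and 2 together, was chosen after seeing the data and gave 5901 and 5223. The remaining library is then assumed to vary like the other groups, and control replicates 1 and 3, which hold more *Acp36DE* RNA, stayed in, so it does not remove accessory gland RNA from the comparison. Libraries with the same number did not deviate together in all 3 cases (correlations of 0.29, 0.28 and -0.12), so the numbers were not taken as pairs, and a replicate block gave 6616 and 5597. With at least 10 fragments in every library, which by construction removes the genes silent in control, list medians relative to the median gene changed sign for cell death and stress (0.14), glial (0.23), chemosensory (-0.00333), cuticle (-0.62), eggshell (-0.70) and oocyte and early embryo genes (-0.30). Lists and genes close to the median gene crossed it elsewhere. Without a filter these were the proteasome (-0.0475) and exon junction and decay (-0.0602) lists and *ord* (-0.0885), *r-cup* (-0.0943), *Prosbeta2R1* (-0.0109) and *gammaTub23C* (-0.0527). Without *U2af38* RNAi replicates 1 and 2 they were the proteasome list (-0.0220) and *Prosbeta2R1* (-0.00777), and in single lanes the glial list (0.0320 and 0.0735). With each replicate left out in turn, the glial list ranged from -0.0543 to 0.0266, *ord* from -0.0323 to 0.0204 and *r-cup* from -0.0553 to 0.0224. Of 227 named genes, 24 lost their call on library size, 12 on upper quartiles, 9 on ribosomal protein genes and 76 with the minimum log2 fold change of 1. The fitted sign changed for 18, 2 and 6 of them under the 3 scalings, at sizes of at most 0.62. With a mean of at least 1 CPM required, 51.7% of intronless and 36.5% of genes with 9 or more introns were lower, against 43.9% and 36.1%. Under 3 fragments in a library, which is 0.111 to 0.170 CPM in these groups, absence and low expression cannot be told apart at this depth.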
